A study of Mus musculus with 8 samples.

Results

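Kupffer cells, the macrophages that live in the liver sinusoids, are recognised by genes that they express strongly. The 8 genes described here are Csf1r and Adgre1, which macrophages express in general, and Folr2, Vcam1, Cd5l, Pcolce2, Fabp7 and Kcna2. They were taken by name from the gene symbols of the files, and all 8 were found among 24786 symbols and among the 15254 genes that passed the filter on low counts. Most encode surface or secreted proteins. Fabp7 does not, since its product is a lipid carrier of the cytosol.

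The libraries came from hepatic macrophages of C57BL/6 mice, labelled as liver-resident Kupffer cells or as monocyte-derived macrophages (MoM), with 2 libraries in each of 4 groups. TG mice carried dnTGFβRII, a dominant-negative TGF-β receptor II that is known to be driven by a CD4 promoter and so to act in T cells, and they serve as a model of cholangitis. WT mice were wild type on the same strain. The labels name no treatment, age, sex, pooling of animals or batch for any group, nor whether separate animals gave the replicates, so the p-values below measure only the spread between these libraries.

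Macrophages of the liver depend on the CSF1 receptor, a tyrosine kinase on the cell surface that binds the growth factors CSF1 and IL-34 and keeps the cells alive. In Kupffer cells, contact with the sinusoidal endothelium and lipid-sensing nuclear receptors of the LXR family maintain a further programme, of which the secreted protein CD5L is a known part. Monocytes that enter the liver start with the CSF1 receptor and a low level of F4/80, and take up the remaining Kupffer genes only as they settle.

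The 8 libraries held between 26190194 and 30308132 counts. Levels are CPM, each count divided by its library's total and scaled with TMM factors, and each member had between 26 and 269158 counts per library. Clec4f, a lectin found on Kupffer cells, stood at 11553 and 12314 CPM in WT Kupffer cells, and at 33.3 to 125 CPM in 3 of the MoM libraries. The library labelled MoM WT replicate 1 was the exception, with 3599 CPM of Clec4f. Endothelial markers, summed over 12 genes, reached 9924 CPM in Kupffer TG replicate 2 and 6156 CPM in MoM WT replicate 1, while the other 6 libraries had 654 to 2749 CPM. In the Kupffer libraries much of that sum was Cdh5 (953 to 1300 CPM), which is also a Kupffer label marker here. Ptprb, an endothelial gene of the list, stood at 521 CPM in MoM TG replicate 2 and 492 CPM in MoM WT replicate 2. The 4 libraries with the least of it had 21.8 to 101 CPM, so these MoM libraries held endothelial RNA too. Neutrophil markers summed to 3649 CPM in MoM TG replicate 2, 550 CPM in MoM WT replicate 2 and 2.12 to 123 CPM elsewhere. In MoM WT replicate 2 the single gene Retnlg made 471 CPM of that sum, and each other gene of the list stood at 32.1 CPM at most. Cholangiocyte markers summed to 102 CPM in MoM WT replicate 2 and at most 22.5 CPM elsewhere. B cell markers summed to 96.7 to 219 CPM in the MoM libraries and 20.6 to 39.5 CPM in the Kupffer libraries. Hepatocyte markers summed to 937 CPM in Kupffer TG replicate 2, 627 and 676 CPM in WT MoM and 12.3 to 488 CPM elsewhere. Results that rest on Kupffer TG replicate 2 and MoM WT replicate 1, the libraries with the most endothelial RNA, are given with and without them.

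Cd5l was the most abundant of the 8 transcripts in WT Kupffer cells. Per kilobase of exon, which allows levels of different genes to be compared, it stood at 4046 ± 171 CPM (SD, n = 2 libraries), and by plain CPM it ranked number 4 of all genes. Csf1r followed at 1228 ± 82.6 CPM per kilobase, ranking number 7 by plain CPM. Folr2, a receptor that takes folate into the cell, stood at 848 ± 17.7 CPM per kilobase, and Adgre1, the gene of the macrophage antigen F4/80, at 769 ± 0.606 CPM per kilobase. The remaining 4 members lay lower, with Fabp7 at 151 ± 5.82, Vcam1 at 87.6 ± 7.98, Pcolce2 at 47.4 ± 2.31 and Kcna2 at 18.4 ± 0.888 CPM per kilobase. No neighbours in this order overlapped between the 2 WT Kupffer libraries, and the order was the same with the longest transcript as the length. In TG MoM the order was different: Csf1r led at 247 ± 46.9 CPM per kilobase, followed by Adgre1 at 74.6 ± 24.7 and Cd5l at 63.6 ± 28.01, and the last 2 did not differ beyond their spread.

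The reference tables held promoters for 5 members, Cd5l, Folr2, Fabp7, Pcolce2 and Kcna2. The bases from 250 to 51 before the RefSeq start were searched on both strands for the PU box AGGAAGT, bound by the macrophage factor PU.1, and for 5 other motifs. The stretches of Folr2 and Fabp7 are shown because they held the PU box, which 5.66% of all 32851 stretches hold. Those of Cd5l, Pcolce2 and Kcna2 held none. Folr2 has a second RefSeq start, whose stretch held no PU box and is not shown. The stretch of Cd5l is shown as that of the most abundant member. Capitals mark the PU box, read on the opposite strand in Fabp7.
Folr2, chr7:101857241-101857440, minus strand: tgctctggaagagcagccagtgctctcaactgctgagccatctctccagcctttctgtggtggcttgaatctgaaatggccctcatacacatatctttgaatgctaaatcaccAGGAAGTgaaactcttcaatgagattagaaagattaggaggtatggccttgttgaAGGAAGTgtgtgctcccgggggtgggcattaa
Fabp7, chr10:57784673-57784872, plus strand: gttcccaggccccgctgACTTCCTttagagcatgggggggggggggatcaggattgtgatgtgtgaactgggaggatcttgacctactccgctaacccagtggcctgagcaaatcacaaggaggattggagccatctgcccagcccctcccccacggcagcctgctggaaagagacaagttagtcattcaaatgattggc
Cd5l, chr3:87357631-87357830, plus strand: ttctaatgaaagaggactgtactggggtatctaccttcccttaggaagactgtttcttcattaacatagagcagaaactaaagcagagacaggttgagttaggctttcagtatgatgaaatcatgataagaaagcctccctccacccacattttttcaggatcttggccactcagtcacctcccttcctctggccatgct
All coordinates are those of GRCm38.p6. The copies in Folr2 began 137 and 82 bases before the start, and the copy in Fabp7 covered bases 233 to 227 before it. None of the 5 members held TATAAA (9.14% of stretches), the kappa B motif GGGNNTTCC (3.73%), the RBPJ motif GTGGGAA (4.35%), the MAF half-site TGCTGAC (2.95%) or a pair of AGGTCA half-sites with 4 bases between them (0.0122%) in this stretch.

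The first question was how far these genes separate MoM from Kupffer cells. All 8 members were lower in MoM than in Kupffer cells, in both genotypes, with no overlap between the groups. In WT this pattern was shared by 29.7% of all genes tested and in TG by 23.8%. None passed edgeR's quasi-likelihood test with Benjamini-Hochberg adjustment when all 8 libraries were used, while 1.17% of all genes did so in WT (0.059% lower in MoM) and 2.5% in TG (0.656% lower). Without adjustment 3 of 8 had p below 0.05 in WT and 8 of 8 in TG, a level that 25.4% of all genes reached in either genotype. In bulk samples, fewer cells of a type and less RNA per cell cannot be told apart.

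**Figure D1:**
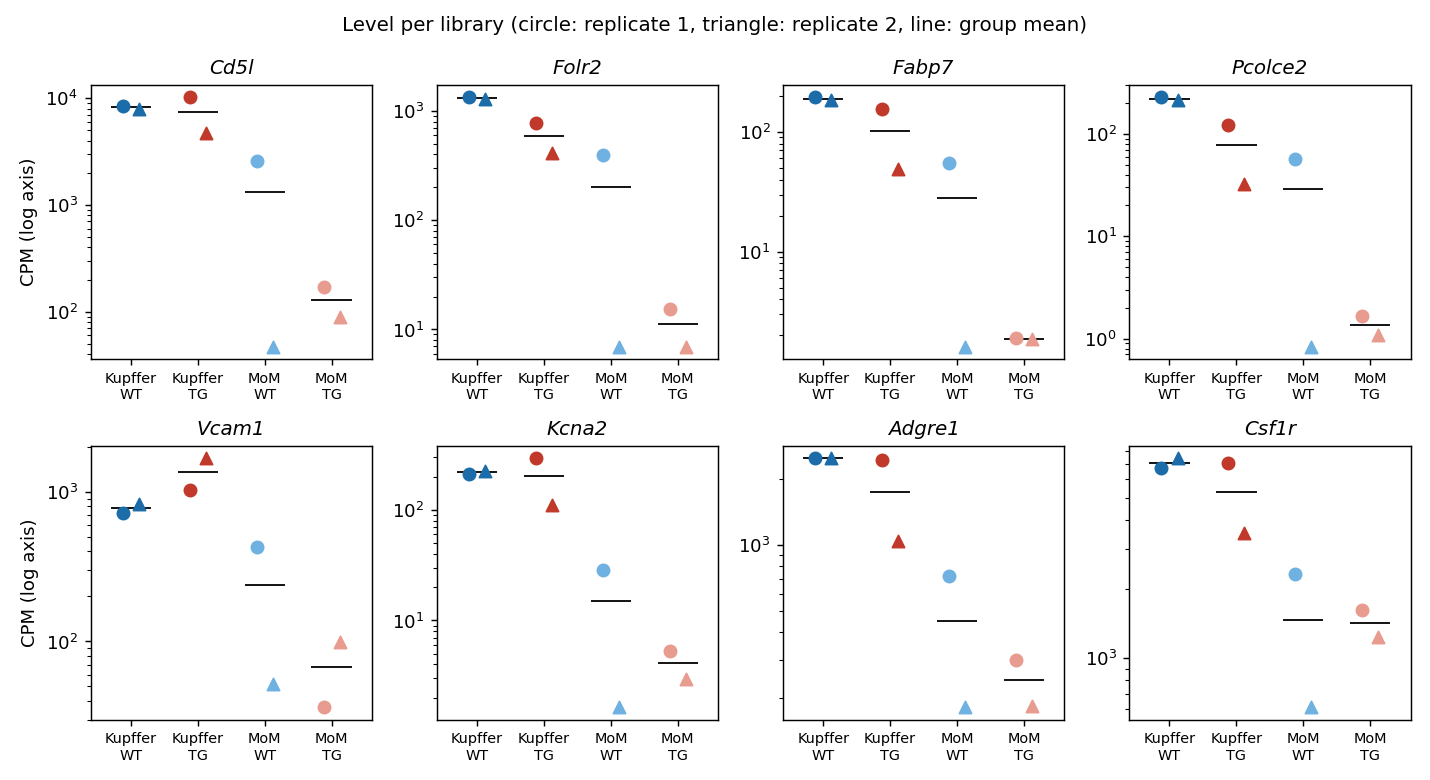
Level of each of the 8 genes in CPM (log axis) in Kupffer cells and monocyte-derived macrophages (MoM) of WT and TG mice. Circles are replicate 1, triangles replicate 2 and lines group means. Every gene was lower in all MoM libraries than in the Kupffer libraries of the same genotype, and MoM WT replicate 1 lay far above replicate 2, as for Cd5l with 2584 against 47.2 CPM.

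Among the receptors, Csf1r (chromosome 18, 61100598 to 61132149, GRCm38) stood at 6755 and 7429 CPM in WT Kupffer cells and at 2332 and 610 CPM in WT MoM. TG Kupffer cells had 7086 and 3522 CPM, and TG MoM had 1616 and 1234 CPM. The gene was thus abundant in every library, and the groups did not overlap. Its log2 fold change, MoM minus Kupffer, was -2.27 ± 0.71 in WT (SE, adjusted p = 0.133) and -1.90 ± 0.70 in TG (adjusted p = 0.159). In the annotation, 873 bases of its exons lie over exons of Hmgxb3 on the opposite strand, and the strand setting of the counts is not given in the sources used here.

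Adgre1 (chromosome 17, 57358691 to 57483527) was even between the WT Kupffer libraries, at 2491 and 2488 CPM. WT MoM had 720 and 182 CPM. In TG, Kupffer cells had 2434 and 1044 CPM and MoM had 298 and 185 CPM. F4/80 RNA was therefore present in every MoM library, at a lower level than in any Kupffer library. The log2 fold change was -2.85 ± 0.75 in TG (adjusted p = 0.0885).

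Folr2 (chromosome 7, 101839988 to 101857194), a marker of resident tissue macrophages, showed a much wider gap. It stood at 1330 and 1291 CPM in WT Kupffer cells and at 775 and 416 CPM in TG Kupffer cells. In MoM it stood at 15.5 and 6.98 CPM in TG and at 398 and 6.98 CPM in WT, so that 3 MoM libraries were nearly devoid of it and MoM WT replicate 1 was not. The log2 fold change was -2.69 ± 1.49 in WT (adjusted p = 0.284) and -5.73 ± 1.72 in TG (adjusted p = 0.109). An antisense gene not in the count files covers 975 bases of its exons.

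Vcam1 (chromosome 3, 116109949 to 116129688) encodes an adhesion molecule that holds leukocytes carrying the integrin α4β1, and activated endothelium makes it as well as Kupffer cells. It stood at 727 and 827 CPM in WT Kupffer cells and at 1037 and 1684 CPM in TG Kupffer cells. MoM had 426 and 51.5 CPM in WT and 36.3 and 98.7 CPM in TG. All Kupffer libraries were above all MoM libraries, and the log2 fold change was -1.70 ± 0.95 in WT (adjusted p = 0.289) and -4.33 ± 1.07 in TG (adjusted p = 0.078). An antisense gene not in the count files covers 61 bases of its exons.

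Of the secreted products, Cd5l (chromosome 3, 87357881 to 87371073) encodes a circulating protein that binds IgM and is made mainly by tissue macrophages. It stood at 8482 and 7991 CPM in WT Kupffer cells, at 10174 and 4720 CPM in TG Kupffer cells. TG MoM had 170 and 89.2 CPM. WT MoM had 2584 and 47.2 CPM, a 54.8-fold difference between replicates of 1 group. The fold change between the TG groups was 57.5, with a log2 value of -5.85 ± 1.74 (adjusted p = 0.107).

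Pcolce2 (chromosome 9, 95637601 to 95698096) encodes an enhancer of the proteinase that trims procollagen. WT Kupffer cells had 227 and 212 CPM and TG Kupffer cells 122 and 32.4 CPM. MoM had 56.9 and 0.836 CPM in WT and 1.66 and 1.08 CPM in TG. The gene had only 26 to 44 counts in the 3 MoM libraries other than MoM WT replicate 1. Its log2 fold change was -2.93 ± 1.56 in WT (adjusted p = 0.272) and -5.82 ± 1.82 in TG (adjusted p = 0.117).

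Fabp7 (chromosome 10, 57784881 to 57788450), the fatty acid-binding protein best known from brain, had 194 and 184 CPM in WT and 155 and 48.7 CPM in TG Kupffer cells. MoM had 54.5 and 1.61 CPM in WT and 1.88 and 1.87 CPM in TG. The TG difference was 54.1-fold, with a log2 value of -5.76 ± 1.58 (adjusted p = 0.0939). Kcna2 (chromosome 3, 107101146 to 107115005), a voltage-gated potassium channel known from neurons, had 211 and 226 CPM in WT and 293 and 109 CPM in TG Kupffer cells. MoM had 28.3 and 1.64 CPM in WT and 5.35 and 2.99 CPM in TG. With all libraries, Kcna2 had the largest difference of the 8 genes in WT, with a log2 fold change of -3.87 ± 1.24 (adjusted p = 0.138). That rank rested on MoM WT replicate 1, without which Pcolce2 had the largest, -8.04, and Kcna2 had -7.06. In TG, Kcna2 had the smallest adjusted p, with -5.59 ± 1.35 (adjusted p = 0.0766).

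The number of members called changed with the libraries used. In TG it changed even on leaving out either WT MoM library, neither of which is in that comparison. Cd5l there kept a log2 fold change of -5.85 without MoM WT replicate 1 and -5.84 without replicate 2, against -5.85 with all libraries. The 2 libraries left out together, those with the most endothelial RNA, were chosen with earlier results known. MoM WT replicate 1 was also the MoM library with the most Clec4f (3599 CPM) and the most of each of the 8 members. Leaving it out therefore lowers all 8 in WT MoM by construction, and the WT calls without it are no independent support. Kupffer TG replicate 2 was the TG Kupffer library with less of every member except Vcam1. Leaving that library out raises those members in TG Kupffer cells by construction, so the TG calls without it are no independent support either. Without Kupffer TG replicate 2 and MoM WT replicate 1, all 8 members were called lower in MoM in WT, where 7.43% of all genes were called lower, and all 8 in TG, where 7.06% were. The adjusted p then lay between 0.0016 for Fabp7 and 0.0213 for Vcam1 in WT. In that fit WT MoM and TG Kupffer cells are single libraries, assumed to vary like the other groups. Without MoM WT replicate 1 alone, 6 members were called in WT and 7 in TG, against 2.13% and 3.25% of all genes, and without MoM WT replicate 2 alone 7 in TG, against 3.4%. DESeq2, another count test, called 3 members lower in WT (Csf1r, Adgre1 and Kcna2) and all 8 in TG, where it called 6.75% and 8.85% of all genes lower.

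**Figure D2:**
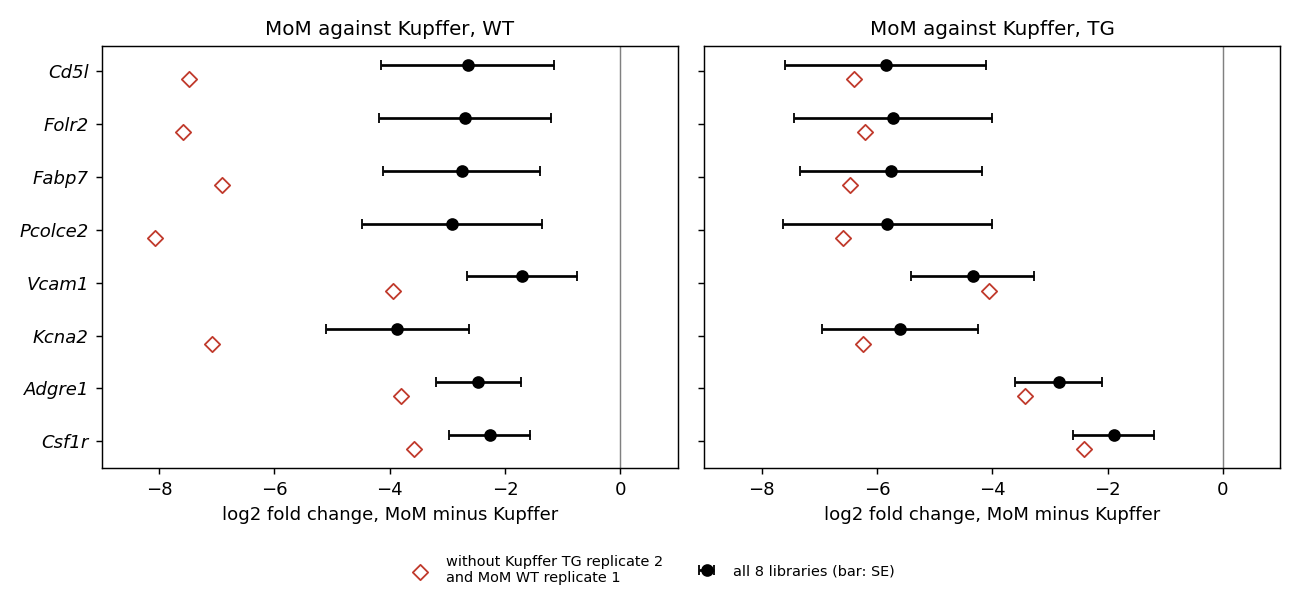
Log2 fold change of each gene, MoM minus Kupffer, in WT (left) and TG (right). Black points with SE bars use all 8 libraries, and open diamonds leave out Kupffer TG replicate 2 and MoM WT replicate 1. In WT the diamonds lie farther from 0 for every gene, as for Pcolce2 with -8.07 against -2.93.

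Set against the WT Kupffer mean, the members stood at different levels in MoM. In the 3 MoM libraries with little Clec4f, Csf1r stood at 8.61% to 22.8% of its WT Kupffer level, Adgre1 at 7.30% to 11.97% and Vcam1 at 4.66% to 12.7%. The other 5 members stood at 2.44% at most, the value of Kcna2 in TG replicate 1. Pcolce2 had the lowest share in each of these libraries, down to 0.381%. Whether this RNA came from the MoM themselves or from Kupffer cells among them was not tested. The 6 Kupffer label markers had medians of 0.91% to 1.57% in the same libraries. Of the 3 genes with the higher shares, Vcam1 is also an endothelial gene. Endothelial markers in these libraries summed to 654 CPM where Vcam1 was lowest, in MoM TG replicate 1, and to 2481 and 2749 CPM in the others. Their part in the Vcam1 level was not tested.

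In MoM WT replicate 1 the median share of the WT Kupffer level was 29.7% over the 8 members and 30.1% over the 6 label markers. Cd5l (31.4%), Folr2 (30.4%), Fabp7 (28.8%), Adgre1 (28.9%), Csf1r (32.9%) and Pcolce2 (25.9%) lay within the range of the label markers, which ran from Slc40a1 (24.0%) over Vsig4 (28.1%), Timd4 (30.0%), Clec4f (30.2%) and C6 (30.5%) to Cdh5 (47.6%). Kcna2 stood apart below, at 12.9%, and Vcam1 above, at 54.8%, in the library with the second most endothelial RNA. Cdh5 is listed here both as a Kupffer and as an endothelial gene.

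**Figure D3:**
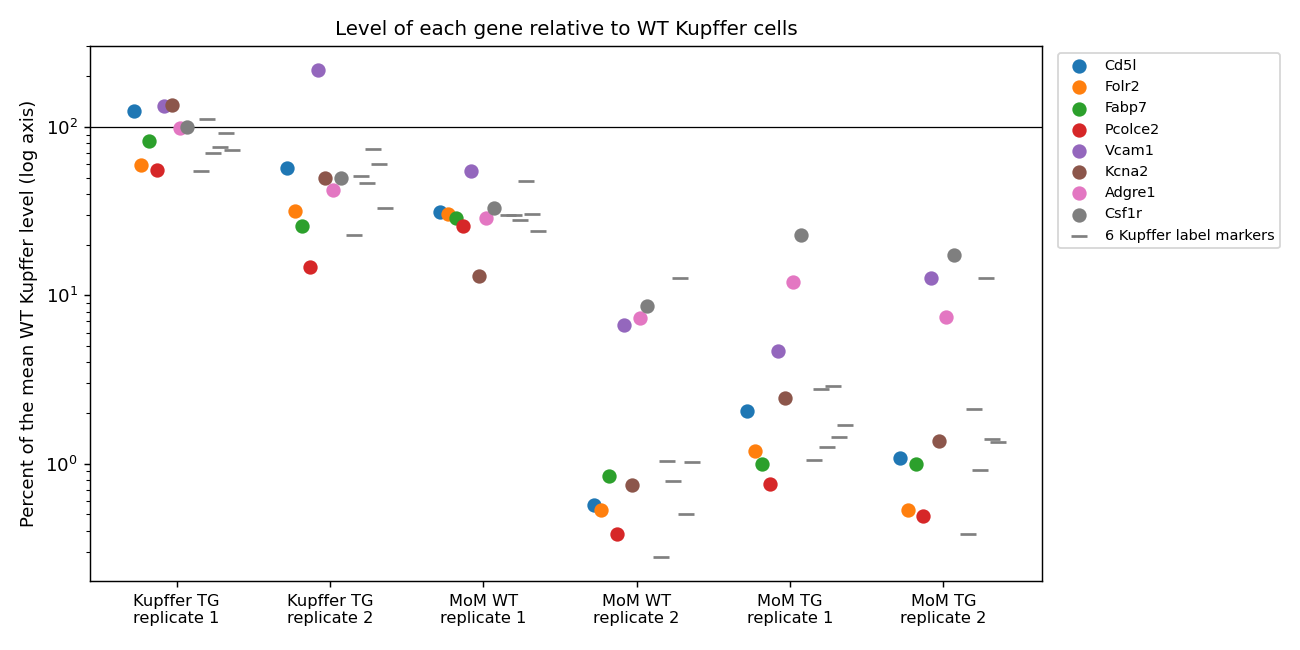
Level of the 8 genes (coloured points) and of 6 Kupffer label markers (grey dashes) in 6 libraries, as percent of the mean WT Kupffer level on a log axis. The line marks 100%. In MoM WT replicate 1 most points lie near 30%, with Kcna2 at 12.9% and Vcam1 at 54.8%, and in the other MoM libraries Csf1r, Adgre1 and Vcam1 lie above the other 5 genes.

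The second question was what the TG genotype does to these genes within Kupffer cells. Folr2, Fabp7, Pcolce2 and Adgre1 were lower in both TG libraries than in both WT libraries, an order found in 17.7% of all genes, and Vcam1 was higher in both, as were 16.7% of all genes. Cd5l, Kcna2 and Csf1r overlapped between genotypes. None of the 8 passed the test in edgeR (adjusted p from 0.844 to 0.989), nor did any other gene (0.0%), and DESeq2 called none of the 8 and 260 genes in all. None of the 8 had an unadjusted p below 0.05, which 5.94% of all genes had.

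Folr2 and Pcolce2 had the lowest shares of the WT level in TG replicate 1, the TG library with little endothelial RNA, at 59.1% and 55.7%. In TG replicate 2 they stood at 31.7% and 14.8%. Their log2 fold changes, TG minus WT, were -1.14 ± 1.42 for Folr2 (adjusted p = 0.878) and -1.50 ± 1.48 for Pcolce2 (adjusted p = 0.844). Fabp7 stood at 81.8% and 25.7%, so that all 3 genes were below WT in each TG library, by amounts that differed between the libraries. The 6 Kupffer label markers had a median of 74.4% in TG replicate 1, from 55.0% for Clec4f to 111% for Timd4, and of 48.8% in TG replicate 2, from 22.9% for Clec4f to 74.0% for Cdh5.

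Csf1r and Adgre1 in TG replicate 1 were at 99.9% and 97.8% of the WT level, and in TG replicate 2 at 49.7% and 41.9%. Cd5l and Kcna2 were at 124% and 134% in replicate 1 and at 57.3% and 50.01% in replicate 2. These 4 genes, all negative in the fit, turned positive without TG replicate 2, to 0.35 for Cd5l, 0.47 for Kcna2, 0.047 for Csf1r and 0.014 for Adgre1 on the log2 scale (adjusted p = 1 for each). In TG replicate 2 markers of other cells were the highest of the Kupffer libraries for endothelium (9924 CPM), hepatocytes (937 CPM) and T cells (250 CPM), and the Kupffer label markers summed to 7169 CPM against 13945 to 22241 CPM in the other 3. The part of that RNA in the lower levels was not tested.

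Vcam1 was the only member with a positive value, at 0.81 ± 0.93 on the log2 scale (adjusted p = 0.866), a mean of 1361 ± 457 CPM in TG and 777 ± 70.8 CPM in WT (SD, n = 2). It was highest in TG replicate 2, at 217% of the WT level, where endothelial markers were highest too. In TG replicate 1 it stood at 133%, and endothelial markers summed to 1682 CPM, against 1966 and 2434 CPM in the WT libraries. Of these sums Cdh5, also a Kupffer label marker, made 973 CPM in TG replicate 1 and 1277 and 1300 CPM in WT. Without Cdh5 the sum in TG replicate 1 was not below that in WT replicate 1. The part of endothelial RNA in the Vcam1 level was not tested. Without TG replicate 2 the log2 value was 0.46. The authors' deposited table lists 179 genes for TG against WT and holds none of the 8 members. It does not name its cells, but its mean level was within 1% of that of the 4 Kupffer libraries for 179 of 179 genes and of the MoM libraries for 0. Of the genes listed here beside the members it holds 3, and the authors' deposited table gives log2 fold changes of 2.64 for Marco, 6.62 for Selp and 6.74 for Sele. Marco, a scavenger receptor, was high in both TG Kupffer libraries, at 5492 and 3309 CPM against 687 and 743 CPM in WT. Selp and Sele, selectins of endothelium, stood at 1.21 and 0.113 CPM in Kupffer TG replicate 1 and at 83.7 and 30.6 CPM in replicate 2, so that their high values lay in the second library.

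**Figure D4:**
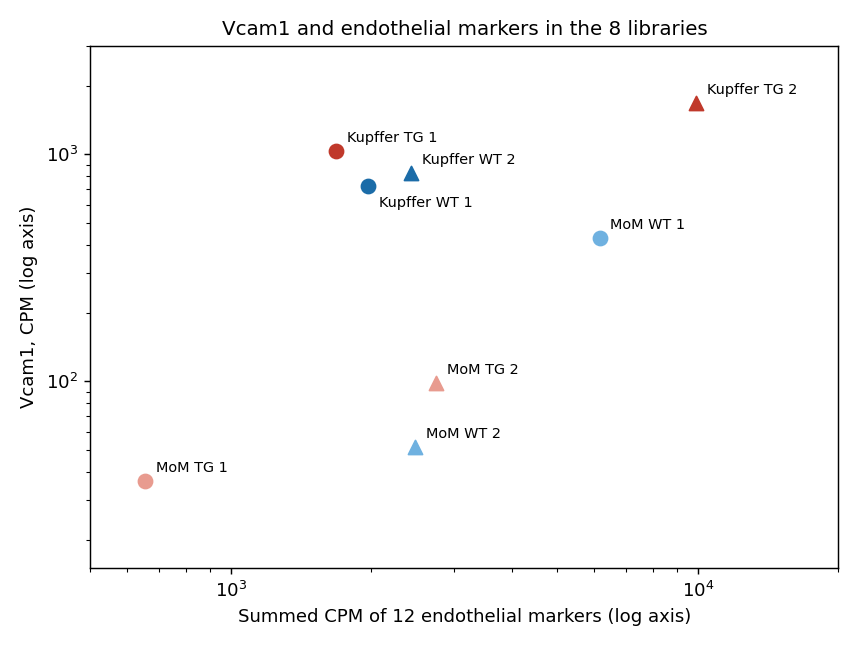
Vcam1 in CPM against the summed CPM of 12 endothelial markers in the 8 libraries, both on log axes. Circles are replicate 1 and triangles replicate 2. Kupffer TG replicate 1 lies above both WT Kupffer libraries at a lower marker sum (1682 CPM), while Kupffer TG replicate 2 has the most of both. In the Kupffer libraries 953 to 1300 CPM of the sum is Cdh5, also a Kupffer label marker here. The axis therefore does not measure endothelial RNA alone. The lower sum in Kupffer TG replicate 1 than in WT replicate 1 rests on Cdh5 (973 against 1277 CPM).

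In MoM, the TG and WT libraries overlapped for all 8 members, where 20.0% of all genes were lower in both TG libraries and 19.2% higher, since WT replicate 1 lay above both TG libraries and WT replicate 2 at or below at least 1 of them. None was called (adjusted p from 0.755 to 0.994), and 3 of 8 had an unadjusted p below 0.05, against 0.0% and 6.47% of all genes in edgeR and 141 genes in DESeq2, which called none of the 8. All 8 values were negative, from -4.40 ± 1.71 for Pcolce2 to -0.05 ± 0.68 for Csf1r on the log2 scale. Without MoM WT replicate 1 all 8 became positive, from 0.23 for Fabp7 to 1.46 for Cd5l, so the sign in MoM rested on that library. Against MoM WT replicate 2, a lone library, the TG libraries had more Csf1r (1616 and 1234 against 610 CPM), more Cd5l (170 and 89.2 against 47.2 CPM) and more Kcna2 (5.35 and 2.99 against 1.64 CPM). Vcam1 (36.3 and 98.7 against 51.5 CPM) and Folr2 (15.5 and 6.98 against 6.98 CPM) were not higher in both TG libraries. Adgre1 was close to level in TG replicate 2 (185 against 182 CPM).

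Whether the genotype effect differed between MoM and Kupffer cells was tested as an interaction. No member was called (adjusted p from 0.626 for Vcam1 to 0.917 for Adgre1), and 0.0% of all genes were called in edgeR, with 6.42% at an unadjusted p below 0.05 and 47 genes called in DESeq2. Vcam1 had -2.63 ± 1.34 and Cd5l -3.20 ± 2.05 on the log2 scale. Without MoM WT replicate 1 the value of Vcam1 shrank to -0.41 and that of Cd5l turned to 1.61, and without Kupffer TG replicate 2 as well Vcam1 had -0.11.

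Over the 8 libraries, the members followed one another closely. Pearson's r of log2(CPM + 0.5) was 0.996 between Fabp7 and Pcolce2, 0.992 between Fabp7 and Folr2 and 0.990 between Cd5l and Folr2, while Vcam1 had 0.840 with Csf1r and 0.931 with Cd5l. These are descriptions over libraries that share the contrast between subsets and differ in their RNA of other cells. Among 8888 genes averaging 10 CPM or more, the gene most like Cd5l was Timd4, a receptor for dying cells (r = 0.998), followed by C6 and Ccdc148. Folr2 was most like Clec4f (0.998), Chp2 and Fcna, and Pcolce2 most like Fabp7, Cd163 and Slit1. Fabp7 in turn was most like Plod1, Cfp and Pcolce2. Adgre1 was most like Sdc3 (0.998), Ftl1 and Lipa, and Csf1r most like Slc11a1 (0.999), Slc15a3 and Idh1. Kcna2 was closest to Rcbtb2 (0.998), Adgb and Socs5. Vcam1 had the loosest nearest match, Glul at 0.992, followed by Dcun1d4 and Spic.

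Relatives and partners of the members were described from 8 lists. Of 12 genes of the CSF1 receptor axis tested, 1 was called in WT, Flt3, the related kinase of dendritic cells, higher in MoM (267 ± 66.3 against 1.35 ± 0.429 CPM, log2 fold change 7.62 ± 1.18, adjusted p = 0.0478), and 0 in TG. In TG, Flt3 had 205 and 199 CPM in MoM against 1.74 and 17.4 CPM in Kupffer cells (adjusted p = 0.0713). The list had a median log2 fold change of -0.10 in WT, beside 0.11 for all genes.

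Of 8 other adhesion G-protein-coupled receptors, 1 was called in each genotype, Adgrg5, higher in MoM (44.3 ± 13.0 against 1.17 ± 0.187 CPM in WT, adjusted p = 0.0393, and adjusted p = 0.0476 in TG). The list medians were 3.93 in WT and -1.24 in TG, beside -0.04 for all genes in TG. Adgrg1, Adgrg3, Adgrl4 and Adgrf5 of this list were highest in Kupffer TG replicate 2 and MoM WT replicate 1, where endothelial markers were highest too. Adgrf5 had 1049 CPM in Kupffer TG replicate 2, 581 CPM in MoM WT replicate 1 and 11.8 to 44.3 CPM in the other Kupffer libraries. Adgre4 and Adgre5 went the other way, with 317 and 1052 CPM in Kupffer TG replicate 2. The other Kupffer libraries had 721 to 756 CPM of Adgre4 and 1542 to 2096 CPM of Adgre5. These genes were chosen after their values were seen. The part of endothelial RNA in these medians was not tested.

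Of 10 potassium channel genes tested in the list of Kcna2, 1 was called in WT, Kcnn4, a calcium-activated channel, with 53.3 ± 13.4 CPM in MoM and only 0.895 ± 0.157 CPM in Kupffer cells (log2 fold change 5.89 ± 0.70, adjusted p = 0.0326). In TG it was not called (3.27 ± 0.62, adjusted p = 0.0544), nor was Kcna3, which had 18.9 and 8.92 CPM in TG MoM but 0.378 and 1.11 CPM in TG Kupffer cells (adjusted p = 0.0537). Kcna2 in the same TG libraries stood at 5.35 and 2.99 CPM in MoM and at 293 and 109 CPM in Kupffer cells.

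Of 12 genes of folate transport and use, 1 was called in each genotype, Mthfd2, a mitochondrial enzyme of the folate cycle, which rose in MoM from 6.78 ± 0.72 to 36.8 ± 9.36 CPM in WT (2.44 ± 0.31 on the log2 scale, adjusted p = 0.0341) and by 2.60 ± 0.31 in TG (adjusted p = 0.0277). Of 8 genes tested in the list of lipid carriers and their nuclear receptors, 0 were called in either genotype. Fabp5 stood at 53.9 and 66.9 CPM in WT MoM and 4.13 and 2.20 CPM in WT Kupffer cells (adjusted p = 0.0894), the opposite order to Fabp7.

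No gene was called among 11 tested ligands and relatives of VCAM-1, 10 genes of procollagen processing or 11 genes of the scavenger receptor and LXR list. Itga4, the α4 chain that binds VCAM-1, stood at 1544 and 1535 CPM in TG MoM against 323 and 214 CPM in TG Kupffer cells (adjusted p = 0.0697), where Vcam1 itself was high in Kupffer cells. The list around Cd5l had 9 of 11 genes negative in each genotype, with medians of -2.21 in WT and -2.83 in TG. Its smallest p values belonged to Abca1, a cholesterol exporter and LXR target (-3.06 ± 0.72 in WT, adjusted p = 0.0903), and Rxra, the partner of LXR (-3.17 ± 0.66 in TG, adjusted p = 0.0623). Each gene called in these lists was called in only 3 of the 8 fits that left out 1 library, with adjusted p up to 0.388 for Flt3 in WT. In TG against WT, no gene of the lists was called in either subset.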

How the data were processed

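Polyadenylated RNA of 8 mouse libraries, 2 in each of 4 groups, was sequenced on an Illumina instrument. Reads were aligned with STAR 2.5.2b to mm10, per the submitters' processing notes. The authors deposited raw counts per gene symbol, with no counter, annotation or strandedness stated in the sources used here. Of the counts from 1 to 19, 65.0% to 68.0% were even, so sampling error may be larger than the totals imply, which was not tested. The authors' deposited table gives log2 fold changes, p-values, a test score and a mean normalized signal for 179 genes, and was searched for the members and the listed genes and compared with the libraries by its mean signal.

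Counts were filtered with filterByExpr, scaled by TMM and tested in edgeR 4.0.16 (R 4.3.3) with the quasi-likelihood test over all 4 groups, with Benjamini-Hochberg adjustment over 15254 genes and a call at an adjusted p below 0.05. The SE of a log2 fold change came from its F statistic. The biological coefficient of variation was 0.507 with 4 residual degrees of freedom. On simulated counts for MoM against Kupffer cells in WT (14875 genes), the test recovered 0, 13, 32 and 41 of 50 genes lowered 2-, 4-, 8- and 16-fold, with 5 false calls. No simulated library carried RNA of other cells, so this does not give the recovery for the members. Alternatives were DESeq2 1.42.0, size factors, no filter, a replicate block, the 4 libraries compared, and leaving out libraries. Lengths and positions came from GENCODE M21 on GRCm38, promoters from RefSeq on GRCm38.p6. Genes named were the 8 members, called genes of 8 lists (otherwise up to 2 with the smallest p), and the 3 genes most correlated with each member. Members, lists and the 2 libraries left out together were chosen with earlier results of these data known.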

Additional observations from a re-analysis of the deposited data

How the results depend on the processing

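Members called lower in MoM numbered 0 with all libraries. In WT they numbered 8 without Kupffer TG replicate 2 and MoM WT replicate 1 together, 3 with DESeq2 and 0 to 6 on leaving out 1 library, and in TG 8, 8 and 0 to 7. All genes called in WT numbered 178 (169 higher in MoM, 9 lower), against 1585 with only the 4 libraries compared, 2677 (1510 higher, 1167 lower) without both libraries, 2864 (1814 higher, 1050 lower) with DESeq2 and 0 to 1434 on leaving out 1 library. In TG they numbered 381 (281 higher, 100 lower), against 0, 2130 (1021 higher, 1109 lower), 2580 (1268 higher, 1312 lower) and 0 to 1026. For TG against WT the 0 genes called became 260 with DESeq2 in Kupffer cells, with 0 to 257 on leaving out 1 library (257 without Kupffer TG replicate 1), 141 with DESeq2 in MoM, and 47 with DESeq2 for the interaction, with 0 to 83. The median share in MoM WT replicate 1 was 29.7%, and 33.8% without TMM or 28.2% with size factors; in Kupffer TG replicate 2 it was 45.8%, and 50.04% without TMM. Signs turned as follows, on the log2 scale. In Kupffer cells, leaving out 1 library gave -0.83 to 0.35 for Cd5l, -1.03 to 0.47 for Kcna2, -1.28 to 0.014 for Adgre1 and -1.04 to 0.047 for Csf1r, and leaving out both 0.35, 0.47, 0.014 and 0.046. In MoM, leaving out 1 library gave -4.32 to 1.46 for Cd5l, -5.15 to 0.69 for Folr2, -4.85 to 0.23 for Fabp7, -5.38 to 0.71 for Pcolce2, -2.72 to 0.40 for Vcam1, -2.76 to 1.35 for Kcna2, -1.58 to 0.42 for Adgre1 and -0.71 to 1.23 for Csf1r, each highest without MoM WT replicate 1, and leaving out both, in the same order, 1.44, 0.67, 0.20, 0.68, 0.35, 1.32, 0.39 and 1.20. Csf1r there was 0.15 with the replicate block. For the interaction, leaving out 1 library gave -4.17 to 1.61 for Cd5l, -4.01 to 1.83 for Folr2, -3.96 to 1.13 for Fabp7, -3.87 to 2.22 for Pcolce2, -2.64 to 1.47 for Kcna2, -1.06 to 0.94 for Adgre1 and -0.29 to 1.65 for Csf1r, and leaving out both gave 1.09, 1.39, 0.44, 1.48, 0.86 and 0.38 for all of these but Csf1r. Adgre1 was 0.014 with the replicate block. The cause of these changes was not tested. The labels tie no same-numbered libraries together; their deviations correlated from -0.04 to 0.56, and a replicate block gave 234 genes called in WT and 301 in TG and called no member. With 2 libraries a group, each fit that leaves out 1 rests on a lone library assumed to vary like the other groups. Pcolce2, with 26 to 44 counts in 3 MoM libraries, had the least depth.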
